A study of Mus musculus with 19 samples.

Results

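The miRNAs described here are 5 mature products of 3 precursors that are abundant in red blood cells: miR-451, both arms of miR-144 (miR-144-3p and miR-144-5p) and both arms of miR-486 (miR-486-5p and miR-486-3p). They were taken by name, as all rows called miR-451 or belonging to miR-144 or miR-486, and they make up 5 of the 1148 mature miRNAs listed in every library. Small RNA had been sequenced from the CA1 subregion of the hippocampus, cut out under a microscope and snap-frozen, of C57B/6JRj mice, a wild-type strain. There were 19 libraries in 3 groups, and every group drank water with 18 g cyclodextrin per L, the vehicle. Of these, 8 libraries came from mice of 3 months given vehicle (young vehicle), 5 from mice of 20 months given vehicle (aged vehicle) and 6 from mice of 20 months whose vehicle also held 0.67 g per L of SAHA (aged SAHA). SAHA (vorinostat) inhibits histone deacetylases, and the aged mice drank it or the vehicle alone for 4 weeks. Neither pooling of animals nor clearing of the blood vessels before dissection is given in the sources used here.

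miRNAs are short RNAs that guide Argonaute proteins to matching sites in messenger RNAs, chiefly through their seed, and lower the output of those messages. miR-144 and miR-451 are cut from a shared primary transcript that the erythroid factor GATA1 switches on as red cells mature. miR-451 is the known case of a miRNA whose hairpin skips Dicer and is cut by Argonaute 2 itself. miR-486 lies in Ank1, the gene of the red cell membrane protein ankyrin, and is made in the erythroid lineage and in striated muscle. In brain tissue such miRNAs are usually read as coming from blood left in the vessels.

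RefSeq sequences for the GRCm38 build were found for 3 of the 5 miRNAs, and they are shown because the seed (bases 2 to 8, in capitals) sets what each product can target. The row called miR-451 was matched to RefSeq's miR-451a, whose listed synonyms include mmu-mir-451.
miR-451: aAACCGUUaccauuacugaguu
miR-144-3p: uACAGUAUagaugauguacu
miR-144-5p: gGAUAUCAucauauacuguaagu
These 3 seeds differ from each other, and no other mature mouse miRNA in the RefSeq table had any of them. The 2 hairpins are shown with the mature products in capitals, since the position of the product in the hairpin is what sets miR-451 apart.
Mir144 hairpin: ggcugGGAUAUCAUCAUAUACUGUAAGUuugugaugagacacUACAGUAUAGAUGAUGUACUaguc
Mir451a hairpin: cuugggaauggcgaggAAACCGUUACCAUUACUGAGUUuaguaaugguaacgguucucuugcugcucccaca
In the fold predicted by RNAfold, miR-144-5p lay wholly in the first arm of its hairpin and miR-144-3p wholly in the second. miR-451 took up 18 bases of the first arm of its hairpin and then all 4 bases of the loop.

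In GRCm38, Mir144 spans 78073005 to 78073070 and Mir451a spans 78073170 to 78073241 on the plus strand of chromosome 11, with 99 bases between them. Another miRNA precursor, Mir451b, has the same span as Mir451a on the minus strand. Apart from miRNA genes, no GENCODE gene overlaps either precursor, and the nearby gene Eral1 ends 134 bases beyond Mir451a, on the other strand. Mir486 spans 23142555 to 23142682 on the plus strand of chromosome 8, in an intron of Ank1, where the antisense gene Gm15816 also runs. A second precursor, Mir3107, also known as mir-486b, lies on the minus strand of the same place, from 23142573 to 23142662.

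The miR-486-5p counts cannot be given to 1 strand. The row of miR-3107-5p held 41 to 77 reads fewer than that of miR-486-5p in each of the 19 libraries, a gap of 0.279% to 0.615%. This gap had an SD of 11.8 reads between libraries, while the counting error of the difference of 2 separate counts of this size would be 144 to 194 reads. The 2 rows thus differed by less than the sampling noise of separate reads, and miR-3107-5p was not treated as a further measurement. The other arm was less alike, with 2 to 12 reads of miR-3107-3p against 48 to 182 of miR-486-3p.

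Reads assigned to miRNAs totalled 3585489 to 6808281 per library, with 680 to 735 miRNAs detected. The 8 neuronal miRNAs listed as a check of the tissue included miR-124-3p and miR-9-5p. They took 8.28% to 9.33% of counts in young vehicle, 8.62% to 9.42% in aged vehicle and 7.33% to 8.49% in aged SAHA libraries. Of 5 miRNAs listed for other tissues, the liver miRNA miR-122-5p had 8 reads at most and the heart miRNA miR-208a-3p 1 read at most. The endocrine miRNA miR-375-3p had 361 to 1229 reads, and the muscle miRNAs miR-133a-3p and miR-1a-3p had 308 to 690 and 12 to 48. Over the tested miRNAs, the root mean square deviation from the group mean was 0.381 log2 units in aged SAHA 1 and 0.184 to 0.308 in the other 18 libraries. Results are also given without aged SAHA 1 together with young vehicle 6, a pair taken from earlier work on these data, where this changed a call.

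mmu-miR-486-5p was the most abundant of the 5, at 2845 ± 363 CPM (counts scaled to a common depth by TMM, a method that balances library composition; mean ± SD, n = 19), and ranked 48 of 1148 by mean level. mmu-miR-451 followed with 91.9 ± 17.8 CPM and rank 209. The other 3 lay close together, with 20.2 ± 6.11 CPM for mmu-miR-144-3p, 19.6 ± 4.24 CPM for mmu-miR-486-3p and 16.3 ± 4.17 CPM for mmu-miR-144-5p, and their ranges over libraries overlapped. These are levels of reads per mature miRNA, not corrected for how well each sequence is captured. Because miR-486-5p gave 93.3% to 96.0% of the reads of the 5 miRNAs in every library, their summed share of all counts (0.254% to 0.381%) describes little else. The other 4 together made up 0.0109% to 0.0184% of counts. In bulk tissue, fewer red cells, less of these RNAs per cell and a source other than red cells cannot be told apart.

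The 5 also differed in how much they varied. miR-144-3p ranged from 9.59 to 32.8 CPM over the 19 libraries, a 3.42-fold span, and its biological coefficient of variation of 0.267 was above that of 93.9% of the 509 tested miRNAs. For miR-451, miR-144-5p and miR-486-3p this coefficient was 0.172, 0.177 and 0.164, against a median of 0.135 over all tested. miR-486-5p, at 0.113, was below that median. Reads behind a value averaged 14673 for miR-486-5p and 472 for miR-451, and 84.6 to 104 for the other 3, so that counting alone gives an error of 0.826%, 4.60% and about 10% (9.82% to 10.9%).

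**Figure D1:**
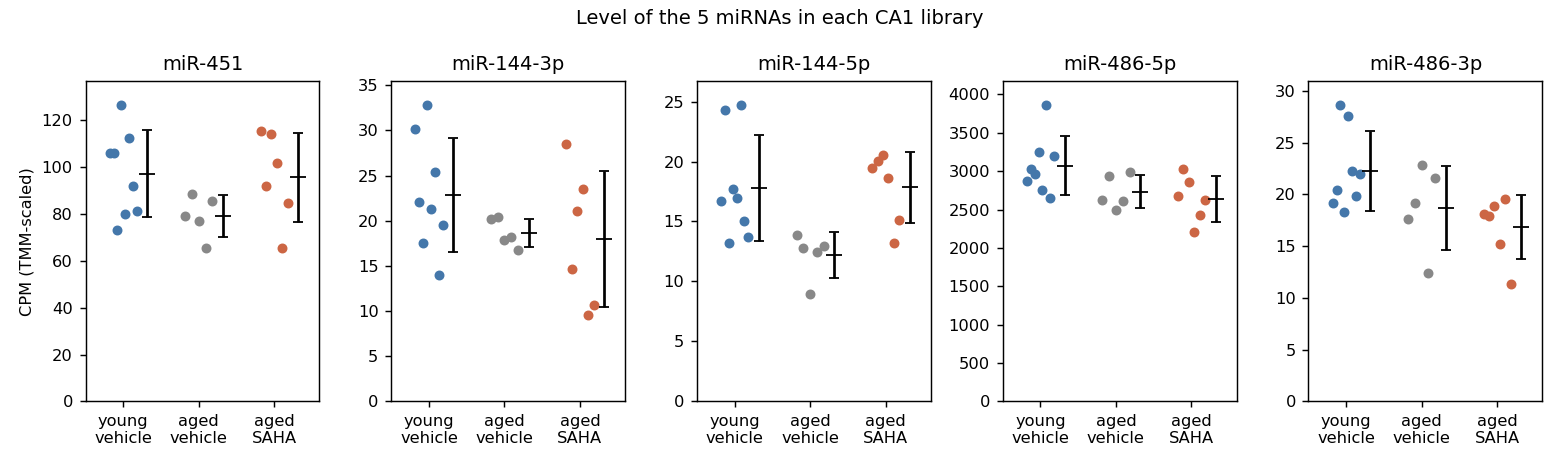
Level of each of the 5 miRNAs in the 3 groups, in TMM-scaled CPM on a linear axis from 0. Each point is 1 library, and bars beside the points are the mean ± SD. The 5 aged vehicle libraries of miR-451 (65.6 to 88.5 CPM) lie in or below the lower part of the young range, and aged SAHA libraries of miR-144-3p are spread from 9.59 to 28.5 CPM.

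The first comparison asks whether these miRNAs differed between mice of 20 and 3 months, both given vehicle. None of the 5 reached an adjusted p below 0.05 in edgeR's quasi-likelihood test, where 2.16% of the 509 tested miRNAs did (11 miRNAs, with 8 to 14 when each library was left out, 20 with DESeq2, 23 with limma-voom, 19 with only the groups compared and 18 without aged SAHA 1 and young vehicle 6). None of the 5 had groups without overlap either, against 3.14% of all tested. All 5 had lower fitted values in aged mice, with a median log2 fold change of -0.28 beside a median of -0.0030 and 50.9% negative values over all tested. Before adjustment, 2 of the 5 had a p under 0.05 by edgeR, against 15.7% of all tested. The 2 arms of a precursor and the neighbouring miR-144 and miR-451 are not independent of each other.

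miR-451, the Argonaute-cut product, was at 73.0, 98.9 and 127 CPM in the lowest, median and highest young vehicle library. In the aged vehicle libraries it was at 79.0, 88.5, 77.0, 65.6 and 85.3 CPM. The groups overlapped, and only aged vehicle 4 lay below all young libraries. The log2 fold change was -0.29 ± 0.14 (SE), with an adjusted p of 0.291 by edgeR.

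miR-144-5p showed the lowest values of the 5 in aged mice relative to young ones. It was at 13.2, 16.9 and 24.7 CPM in the lowest, median and highest young vehicle library, and at 13.9, 12.8, 8.92, 12.4 and 13.0 CPM in the aged vehicle libraries. Of the 5 aged libraries 4 lay below all 8 young ones, and aged vehicle 1 lay just inside the young range. The log2 fold change was -0.54 ± 0.16 (SE), with an adjusted p of 0.0796 by edgeR, which ranked it 18 of 509 by p. No alternative brought it under the threshold (adjusted p 0.0538 to 0.260 over 30 alternatives).

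miR-144-3p, the other arm of the same hairpin, was at 14.0, 21.6 and 32.8 CPM in the lowest, median and highest young library. The aged vehicle libraries held 20.1, 20.4, 17.8, 18.2 and 16.7 CPM, all within the young range. Its log2 fold change was -0.28 ± 0.23 (SE; adjusted p 0.584 by edgeR), and plus or minus 1.96 SE spans -0.73 to 0.17.

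miR-486-5p was at 2645, 2997 and 3866 CPM in the lowest, median and highest young library, and at 2619, 2935, 2496, 2617 and 2985 CPM in the aged vehicle libraries. Aged vehicle 1, 3 and 4 lay below all young libraries and the other 2 inside their range. Its log2 fold change was -0.17 ± 0.09 (SE; adjusted p 0.321 by edgeR). miR-486-3p had a value of -0.25 ± 0.15 (adjusted p 0.394), with 18.3 to 28.7 CPM in young and 12.4 to 22.8 CPM in aged vehicle libraries.

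The second comparison asks what differed between aged mice given SAHA and aged mice given vehicle. It uses the same 5 aged vehicle libraries as the first, with opposite sign, so the values of these comparisons are not independent. Again none of the 5 passed by edgeR, where 4.32% of all tested did (22 miRNAs, with 11 without aged SAHA 6, 13 without aged vehicle 1, 14 without aged vehicle 3, 46 with DESeq2 or limma-voom and 37 without aged SAHA 1 and young vehicle 6). Their signs were mixed, with 3 of 5 negative and a median of -0.05, beside 51.3% negative and a median of -0.0077 over all tested. An unadjusted p under 0.05 was reached by 1 of the 5, against 19.4% of all tested, and groups without overlap by none, against 4.91%.

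That miRNA was miR-144-5p. It was at 13.2, 19.03 and 20.5 CPM in the lowest, median and highest aged SAHA library, beside 8.92 to 13.9 CPM in aged vehicle. All but aged SAHA 5 of the 6 SAHA libraries lay above all 5 vehicle libraries. The log2 fold change was 0.55 ± 0.17 (SE), a 1.46-fold higher level, with an adjusted p of 0.0689 by edgeR. It passed with DESeq2 (adjusted p 0.0374), without aged SAHA 5 (0.0363) and without young vehicle 6 (0.0467). The counts of both arms of miR-144, summed into a single row, gave 0.22 (adjusted p 0.577 by edgeR), a value of neither arm alone.

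The opposite arm, miR-144-3p, was at 9.59, 17.9 and 28.5 CPM in the lowest, median and highest aged SAHA library, so that 3 libraries lay above all 5 vehicle libraries (16.7 to 20.4 CPM) and 3 below. Its log2 fold change was -0.05 ± 0.25 (SE; adjusted p 0.923 by edgeR), with plus or minus 1.96 SE from -0.53 to 0.44.

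miR-451 was at 65.4, 96.9 and 115 CPM in the lowest, median and highest aged SAHA library. The 4 highest lay above all aged vehicle libraries and aged SAHA 5 just below them. Its log2 fold change was 0.27 ± 0.15 (SE; adjusted p 0.315 by edgeR). The arms of miR-486 had values of -0.05 ± 0.09 for miR-486-5p (2204 to 3028 CPM in aged SAHA; adjusted p 0.795) and -0.15 ± 0.16 for miR-486-3p (11.4 to 19.6 CPM; adjusted p 0.656).

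**Figure D2:**
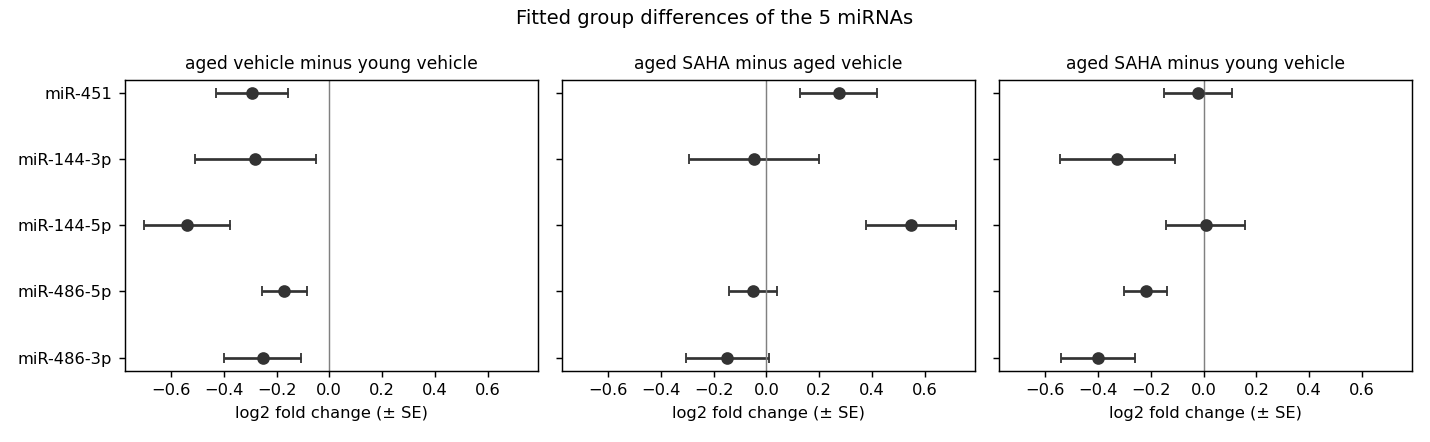
Fitted log2 fold change of each miRNA in the 3 comparisons, with bars of 1 SE from the edgeR fit over 509 miRNAs. Against young vehicle, aged vehicle values are all negative, and miR-144-5p is at -0.54 in that comparison and at 0.55 for SAHA. Both values use the same 5 aged vehicle libraries and are not independent.

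The third comparison sets aged SAHA against young vehicle and so differs in both age and treatment. It shares libraries with the other 2, and its values are not independent of theirs. None of the 5 passed by edgeR, where 13.9% of all tested did, and 2 of the 5 had an unadjusted p under 0.05, against 32.8% of all tested. Groups without overlap were seen for none of the 5 and for 3.54% of all tested. The 2 with low p were the arms of miR-486. miR-486-3p had a log2 fold change of -0.40 ± 0.14 (SE; adjusted p 0.0621), with 4 of 6 aged SAHA libraries below all 8 young ones. miR-486-5p had a value of -0.22 ± 0.08 (adjusted p 0.0753), with 3 of 6 below all young ones. Single choices carried both across the threshold: miR-486-3p passed with DESeq2 (adjusted p 0.0492) and without aged vehicle 4 (0.0462), and miR-486-5p without aged SAHA 2 (0.0419) or young vehicle 7 (0.0499). miR-451 and miR-144-5p were at -0.02 ± 0.13 and 0.01 ± 0.15 in this comparison. The direction of each turned under several alternatives, for miR-451 when scaled by DESeq2 size factors (0.0027) or by library size (0.027). miR-144-3p was at -0.33 ± 0.22 (adjusted p 0.303).

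Ratios of raw counts within a library do not depend on scaling, and 5 of them were compared for age and for SAHA, with adjustment over these 10 tests. The ratio of the arms of miR-144 (5p over 3p) was 0.691, 0.629, 0.503, 0.684 and 0.777 in the aged vehicle libraries. In aged SAHA it was 0.684, 1.17 and 1.42 in the lowest, median and highest library, and in young vehicle 0.543, 0.777 and 1.10. All aged SAHA libraries but aged SAHA 1 lay above all 5 aged vehicle libraries, while young and aged vehicle overlapped. On the log2 scale aged SAHA was higher than aged vehicle by 0.70 ± 0.21 (SE), which gave p = 0.0173 in the two-sided exact permutation test and 0.173 after adjustment, so that it did not pass. None of the 10 ratio tests passed after adjustment.

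The neighbours miR-451 and miR-144-3p stood at a mean count ratio of 4.39 ± 0.952 in young vehicle (SD, n = 8), 4.24 ± 0.560 in aged vehicle (SD, n = 5) and 5.77 ± 1.47 in aged SAHA (SD, n = 6). The SAHA difference was 0.42 ± 0.17 on the log2 scale, with an exact permutation p of 0.0476 and an adjusted value of 0.210, and the age difference was -0.04 ± 0.13 (exact permutation p 0.858). Across separate loci, miR-451 reads were 0.0247 to 0.0463 of miR-486-5p reads. That ratio differed by 0.31 ± 0.14 between aged SAHA and aged vehicle (exact permutation p 0.0823, adjusted 0.210) and by -0.12 ± 0.10 between aged and young vehicle (exact permutation p 0.375, adjusted 0.624).

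Within miR-486 the 5p arm held 99.3 to 229 times the reads of the 3p arm, with means on the log2 scale of 7.11 in young vehicle, 7.21 in aged vehicle and 7.30 in aged SAHA. The differences of 0.10 ± 0.19 for age and 0.09 ± 0.19 for SAHA were within the spread between libraries (exact permutation p 0.608 and 0.658). The ratio of miR-451 to miR-23a-3p, used in plasma work as an index of lysed red cells, was 0.391 ± 0.0576 in young vehicle (SD, n = 8), 0.336 ± 0.0395 in aged vehicle (SD, n = 5) and 0.349 ± 0.0626 in aged SAHA (SD, n = 6). Its log2 difference was -0.21 ± 0.11 for age (exact permutation p 0.0839, adjusted 0.210) and 0.04 ± 0.13 for SAHA (exact permutation p 0.758, adjusted 0.842). Across libraries miR-23a-3p itself had a Spearman's rho of 0.626 with miR-451, so it is not an unrelated reference here. Whether this ratio follows red cell content in brain tissue was not tested.

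**Figure D3:**
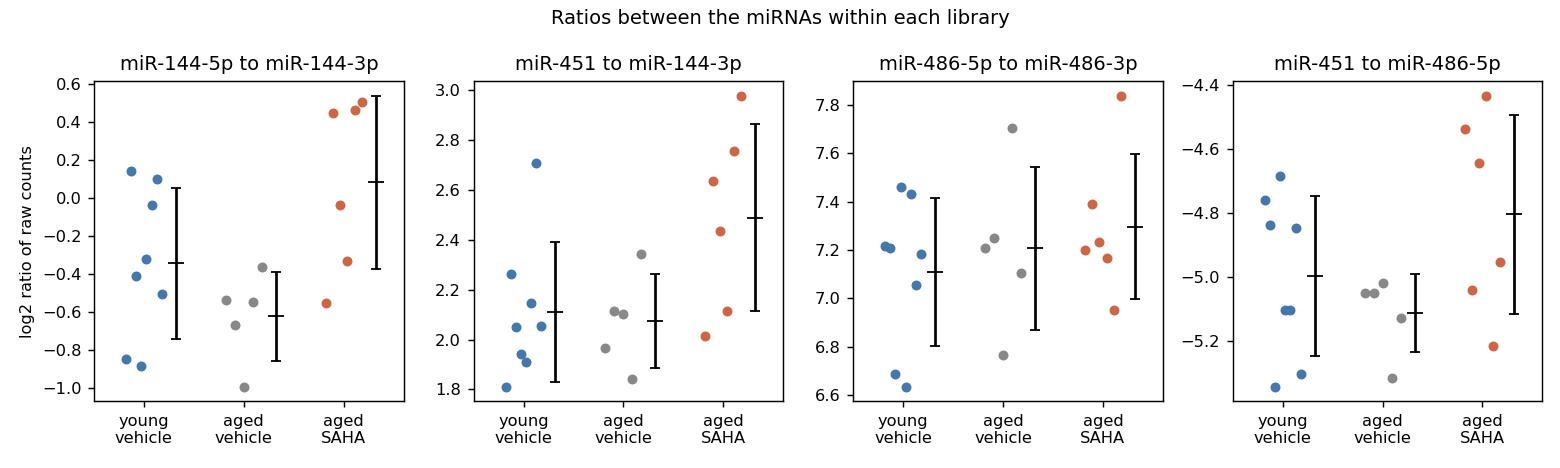
Log2 ratio of raw counts for 4 pairs of miRNAs within each library, by group, with the mean ± SD beside the points. For the miR-144 arms 5 of 6 aged SAHA points lie above all 5 aged vehicle points, while the miR-486 arms overlap widely between the 3 groups (6.63 to 7.84).

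Across libraries, miR-451 rose and fell with both arms of miR-144. Over the 19 libraries log2 CPM of miR-451 and miR-144-5p had Pearson's r of 0.739 (permutation p 0.00038, adjusted 0.0038 over 10 pairs) and Spearman's rho of 0.765 (permutation p 0.00034, adjusted 0.0034). Without the 2 libraries farthest from the median of miR-451, young vehicle 4 and aged SAHA 5, r was 0.782. For miR-451 and miR-144-3p r was 0.687 (permutation p 0.00094, adjusted 0.0047) and rho 0.682 (permutation p 0.00168, adjusted 0.0084), but r without the same 2 libraries was 0.517 (adjusted permutation p 0.163), so that this relation rests in part on them. Taken as deviations from the group means, the 2 values of r were 0.668 with miR-144-5p and 0.775 with miR-144-3p. Within young vehicle alone they were 0.679 and 0.722 (n = 8, adjusted exact permutation p 0.222 for both), and within aged SAHA alone 0.899 and 0.912 (n = 6, adjusted exact permutation p 0.139 and 0.0833).

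The relations that involve miR-486, and that between the miR-144 arms, were weaker. With miR-451, miR-486-5p had r of 0.402 (permutation p 0.0878, adjusted 0.176) and rho of 0.472 (permutation p 0.0438, adjusted 0.109), and r was 0.236 without the 2 libraries farthest from the median of miR-451. miR-486-3p had r of -0.027 (permutation p 0.912, adjusted 0.912) and rho of -0.170 with miR-451 (permutation p 0.486, adjusted 0.608). Within young vehicle alone its r with miR-451 was -0.803 (n = 8, exact permutation p 0.0182, adjusted 0.182), and within aged SAHA alone 0.064. Its r without those 2 libraries was -0.000020. The 2 arms of miR-486 were related to each other with r of 0.366 (permutation p 0.116, adjusted 0.177) and rho of 0.374 (permutation p 0.117, adjusted 0.196), and the 2 arms of miR-144 with r of 0.406 (permutation p 0.0871, adjusted 0.176) and rho of 0.512 (permutation p 0.0274, adjusted 0.0913), and without the 2 libraries farthest from the median r was 0.258 and 0.420. miR-486-5p with miR-144-5p had r of 0.423 (permutation p 0.0713, adjusted 0.176) and rho of 0.382 (permutation p 0.107, adjusted 0.196), and r of 0.097 without aged vehicle 3 and young vehicle 6. None of these passed after adjustment over the pooled libraries. Taken as deviations from the group means, rho passed for miR-486-5p with miR-144-5p (0.549, adjusted permutation p 0.0411) and for the miR-144 arms (0.554, adjusted permutation p 0.0411), while r did not (0.510 and 0.529, both with an adjusted permutation p of 0.0642). The deviations were permuted across groups with no allowance for the fitted means, so these p-values can be too small, and both passes lie close to the threshold.

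Levels were also set against sequencing depth, and no relation passed after adjustment. With log2 total counts, r of miR-486-3p was 0.593 (permutation p 0.0113, adjusted 0.0567 over 5 miRNAs) and its rho 0.565 (permutation p 0.0131, adjusted 0.0656), and r was 0.666 without young vehicle 4 and 5. For miR-451, miR-144-3p, miR-144-5p and miR-486-5p r with depth was between -0.177 and 0.154 (permutation p 0.477 to 0.809, all 4 adjusted to 0.809) and rho between 0.012 and 0.302 (permutation p 0.207 to 0.963), and without those 2 libraries r was 0.259 to 0.490. The part of depth in the values of miR-486-3p was not tested.

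**Figure D4:**
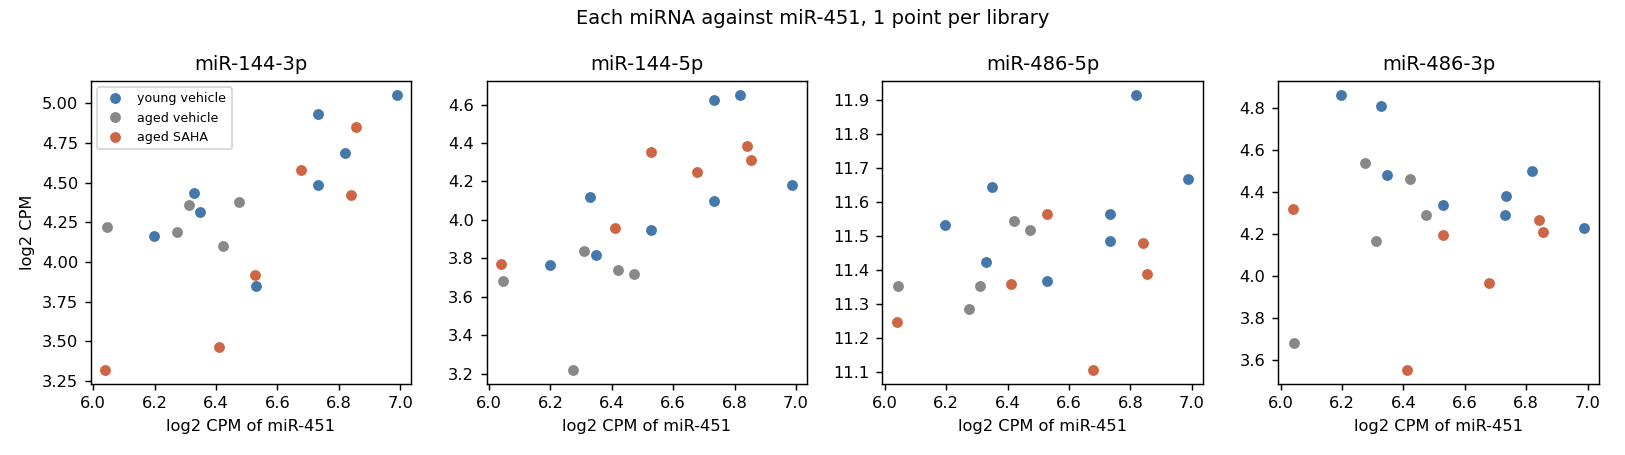
Log2 CPM of the other 4 miRNAs against log2 CPM of miR-451, with 1 point per library coloured by group. Both arms of miR-144 rise with miR-451 (r of 0.687 and 0.739), while miR-486-5p and miR-486-3p are scattered around it (r of 0.402 and -0.027).

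A further fit asked which miRNAs rise and fall with miR-451 between libraries of the same group, with the log2 CPM of miR-451 as a term beside the groups. Both arms of miR-144 passed, and neither arm of miR-486 did, where 4.53% of the 508 other miRNAs passed (15 with a positive and 8 with a negative slope). Per log2 unit of miR-451, the slope was 1.29 ± 0.25 log2 units for miR-144-3p (SE; adjusted p 0.00403 by edgeR) and 0.77 ± 0.22 for miR-144-5p (adjusted p 0.0464). It was 0.25 ± 0.13 for miR-486-5p (adjusted p 0.323) and -0.21 ± 0.24 for miR-486-3p (adjusted p 0.685). Leaving out aged SAHA 5 ended the call of miR-144-3p (adjusted p 0.0549). That of miR-144-5p ended without any of 14 libraries (highest adjusted p 0.178, without aged SAHA 5), without aged SAHA 1 and young vehicle 6 together (0.0826) and with library size as the only scaling (0.0960).

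Positive slopes passed for 2.95% of the 508, and the strongest outside miR-144 and miR-486 included several known from vessel walls. miR-145-3p, from a precursor known in smooth muscle and pericytes, rose by 1.44 ± 0.18 log2 units per unit of miR-451 (adjusted p 1.53e-05 by edgeR), and its call held without any single library (adjusted p of at most 0.000396). The other arm, miR-145-5p, had a slope of 1.20 ± 0.38 and did not pass (adjusted p 0.0828). miR-143-3p, the partner of miR-145 in the same cluster, rose by 1.68 ± 0.38 (adjusted p 0.0209), miR-199a-3p by 1.11 ± 0.25 and miR-199a-5p by 1.73 ± 0.38 (both 0.0136). The row of miR-199b-3p rose by 1.10 ± 0.25 (0.0136) but has the same RefSeq sequence as miR-199a-3p, so the 2 rows may count the same reads. miR-10b-5p had the steepest of the slopes named here, 3.73 ± 0.80 (adjusted p 0.0157), over levels from 24.3 to 631 CPM. The muscle miRNA miR-133a-3p rose by 0.90 ± 0.17 (0.00403) and miR-187-3p by 1.14 ± 0.30 (0.0409). Without young vehicle 4 the adjusted p was 0.0669 for miR-10b-5p, 0.114 for miR-143-3p, 0.0707 for miR-199a-3p, 0.0542 for miR-199a-5p and 0.155 for miR-187-3p. The call of miR-187-3p ended without any of 8 libraries (adjusted p 0.0545 to 0.185), namely young vehicle 2, 3, 4, 5, 7 and 8, aged vehicle 2 and aged SAHA 5. Without aged SAHA 5 the adjusted p was 0.0571 for miR-10b-5p, and without aged SAHA 1 it was 0.0501 for miR-143-3p.

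The 8 negative slopes were led by miR-409-3p (-0.61 ± 0.12, adjusted p 0.00403), miR-421-3p (-0.44 ± 0.10, 0.0136) and miR-488-5p (-0.65 ± 0.15, 0.0162). The rest were miR-433-3p (-0.49 ± 0.13), miR-448-3p (-0.75 ± 0.21), miR-1298-3p (-0.56 ± 0.16), miR-3475 (-0.64 ± 0.18) and miR-3072-3p (-1.50 ± 0.44), with adjusted p from 0.0409 to 0.0489 by edgeR. miR-409 and miR-433 belong to an imprinted cluster that is active in neurons. The call of miR-409-3p held without each library in turn (adjusted p of at most 0.0401), that of miR-421-3p ended without young vehicle 4 (0.0623), aged vehicle 3 (0.0658) or aged SAHA 5 (0.0571), and that of miR-488-5p without young vehicle 4 (0.0852) or aged vehicle 2 (0.0521). The other 5 ended without 11 to 17 of the 19 libraries. Without aged SAHA 1 and young vehicle 6 together, the adjusted p was 0.0859 for miR-433-3p, 0.0617 for miR-448-3p and miR-3072-3p, and 0.135 for miR-3475. The count of 23 passing miRNAs depended on single libraries: it was 4 without young vehicle 4, the library with the highest miR-451 and the fewest reads, 8 without aged SAHA 5, 10 without aged vehicle 2, 11 without young vehicle 2 or 7, 12 without young vehicle 8 and 13 without young vehicle 5 or aged SAHA 1. With library size as the only scaling it was 11.

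By Spearman's rho over the 19 libraries, the non-members most like miR-451 were miR-145-3p (0.853), miR-10b-5p (0.807), miR-199a-3p (0.779), miR-199b-3p (0.761) and miR-199a-5p (0.756). miR-144-5p ranked 4 and miR-144-3p 9 of 508, miR-486-5p ranked 30 and miR-486-3p 332, while the median rho of all 508 was -0.018. All these points share their libraries and scaling, and they are a description. The nearest miRNAs to miR-486-5p, apart from miR-3107-5p, were instead miR-351-5p (0.835) and miR-322-5p (0.732), neighbours of each other on chromosome X. The sequences of the nearest neighbours of miR-451 found in RefSeq are shown with their seeds in capitals, none of which equals that of miR-451.
miR-10b-5p: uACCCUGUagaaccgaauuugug
miR-199a-3p and miR-199b-3p: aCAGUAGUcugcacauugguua
miR-199a-5p: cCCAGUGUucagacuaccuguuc

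**Figure D5:**
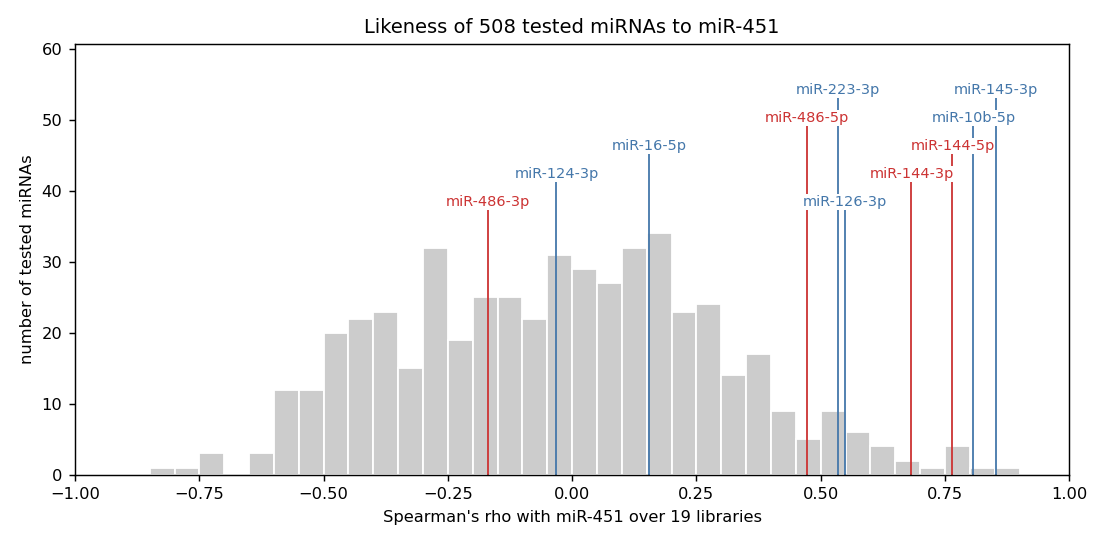
Histogram of Spearman's rho with miR-451 over 19 libraries for the 508 other tested miRNAs, in bins of width 0.05. Red lines mark the arms of miR-144 and miR-486 and blue lines examples of other miRNAs: miR-145-3p is farthest right at 0.853, the arms of miR-144 are at 0.682 and 0.765, and miR-486-3p is at -0.170.

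Lists of other blood, vessel and brain miRNAs were read against the same slope, for which 2.95% of all 508 were called positive and 48.8% had a positive sign. Of 7 tested endothelial and mural miRNAs, 4 rose with miR-451 and none fell (median slope 1.20). These 4 were miR-143-3p and miR-145-3p, of the same cluster, and both arms of miR-199a, so they are not independent. The call of miR-145-3p held without young vehicle 4. Those of miR-143-3p, miR-199a-3p and miR-199a-5p did not (adjusted p 0.114, 0.0707 and 0.0542 by edgeR). The endothelial miR-126-3p and miR-126-5p had slopes of 0.36 ± 0.14 and 0.34 ± 0.18 (adjusted p 0.173 and 0.311). Of 8 tested leukocyte miRNAs, 1 rose, the neutrophil and monocyte miRNA miR-223-3p (1.99 ± 0.55, adjusted p 0.0464, at 1.82 to 13.5 CPM or 12 to 75 reads), and all 8 had positive slopes (median 0.57). Whether the call of miR-223-3p held without single libraries was not looked at. Of 17 tested miRNAs that red cells share with many other cells, none passed and the median slope was 0.090. These include miR-16-5p (0.16 ± 0.13, adjusted p 0.576) and miR-92a-3p (0.09 ± 0.14, adjusted p 0.796). None of the 8 neuronal miRNAs passed, 6 of them had negative slopes, and their median was -0.10. The median over all 508 was -0.0099. The endothelial and mural list took 2.52% to 6.19% of counts in young vehicle, 2.62% to 5.32% in aged vehicle and 2.75% to 6.47% in aged SAHA libraries. Leukocyte miRNAs took 0.165% to 0.192%, 0.189% to 0.222% and 0.175% to 0.282%. The part of either list in the group values of miR-451, miR-144 and miR-486 was not tested.

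The same lists were read in the group comparisons, where 2.16% of all tested were called and 50.9% negative for age, and 4.32% called and 51.3% negative for SAHA. None of the 17 shared red cell miRNAs passed for age, and 1 passed for SAHA, miR-106b-5p, which rose by 0.38 ± 0.09 log2 units (adjusted p 0.0176 by edgeR). Of the leukocyte miRNAs, miR-146a-5p, a brake on inflammatory signalling, rose with age and the lymphocyte miRNA miR-150-5p fell (0.80 ± 0.17 and -0.36 ± 0.07, adjusted p 0.00938 and 0.00223), and none passed for SAHA. None of the 7 endothelial and mural miRNAs passed for age, with 6 negative values and a median of -0.12, and none for SAHA, with 6 positive values and a median of 0.25. None of the 8 neuronal miRNAs passed for age. For SAHA all 8 had negative values (median -0.14), and 2 passed, miR-128-3p (-0.44 ± 0.08, adjusted p 0.00344) and miR-9-3p (-0.28 ± 0.07, adjusted p 0.0176). Of 3 tested miRNAs of other tissues, the muscle miRNA miR-1a-3p rose with SAHA (0.99 ± 0.25, adjusted p 0.0217) and, like miR-133a-3p, rose with miR-451 (1.15 ± 0.33, adjusted p 0.0469). miR-1a-3p had only 12 to 48 reads per library, and whether its slope held without single libraries was not looked at. With miR-451 as a covariate its SAHA call was lost, as were those of miR-127-3p, miR-409-5p, miR-496-3p, miR-1193-3p and miR-1983. Calls gained were miR-25-3p, miR-99b-5p, miR-148a-3p, miR-150-5p, miR-369-5p, miR-744-5p and miR-5117-3p. The reason for these changes was not tested.

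The group comparisons over all miRNAs were also fitted with miR-451 as a covariate. This gave 13 calls for age against 11 without it, of which 9 were shared, 23 for SAHA against 22, of which 16 were shared, and 75 for aged SAHA against young vehicle against 71, of which 70 were shared. With the covariate, the log2 fold change of miR-144-5p was -0.32 ± 0.15 for age (adjusted p 0.330 by edgeR) and 0.34 ± 0.15 for SAHA (0.207), and that of miR-144-3p was 0.10 ± 0.17 for age (0.791) and -0.45 ± 0.18 for SAHA (0.141). These counts depended on single libraries too. For SAHA the count was 4 without aged SAHA 5, 9 without aged SAHA 6 or aged vehicle 1, 12 without aged vehicle 5 and 15 without young vehicle 2. For age it was 5 without aged vehicle 2, 7 without young vehicle 3 or 8 and 8 without aged vehicle 4.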

How the data were processed

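The authors deposited raw counts, a whole number for every mature miRNA in each library. The submitters' processing notes name CASAVA 1.8.2, cutadapt, STAR, HTSeq and mm10, with no settings. HTSeq's 4 summary lines were all 0 and were dropped, so the share of unassigned reads is unknown. Reads carry no molecular identifiers, and counting errors cover counting only. The labels name samples but no animals, so p-values measure the spread between these samples.

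The filter of edgeR (filterByExpr, at least 10 reads, total at least 15) kept 509 of 1148 miRNAs, all 5 described here among them. Scaling was by TMM, and edgeR 4.0.16 (R 4.3.3) fitted the 3 groups together by robust quasi-likelihood. Adjusted p-values are Benjamini-Hochberg values over all tested miRNAs, and calls are those below 0.05. SE is the log2 fold change over the square root of F, and log2 CPM used a prior count of 2. Ratios used counts plus 0.5 with exact permutation tests (scipy 1.17.1), correlations over 19 libraries 100000 permutations, and folds RNAfold 2.7.2. Scripts were tested on simulated data.

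The miRNAs, the lists and the rule for naming others were chosen with earlier results of these data known. That rule names the 5 miRNAs nearest to miR-451 by rho, up to 8 per direction by the p of their slope, and list members that passed. miR-126, miR-145-5p, miR-16-5p and miR-92a-3p, as well as the neighbours of miR-486-5p and the miRNAs named as a tissue check, are examples beside it. Alternatives were DESeq2 1.42.0, its size factors, library size, other filters, limma-voom (limma 3.58.1), only the groups compared, summed arms, single libraries left out and a replicate block.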

Additional observations from a re-analysis of the deposited data

How the results depend on the processing

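For age, none of the 5 miRNAs was called in any of 30 alternatives and all 5 stayed negative. The number of miRNAs called for age was 20 with DESeq2, 23 with limma-voom, 19 with only the groups compared and 18 without aged SAHA 1 and young vehicle 6 (chosen after earlier results). For SAHA it was 46, 46 and 37 with DESeq2, limma-voom and without these 2 libraries, and 11 to 33 with single libraries left out. Of the 5 miRNAs, DESeq2 called 1 in the SAHA comparison and 1 between aged SAHA and young vehicle, and leaving out single libraries 0 to 1 in each. Aged SAHA against young vehicle, miR-451 was 0.00266 with DESeq2 size factors, 0.0268 with library size, 0.00234 with DESeq2, 0.0111 with only the groups compared and -0.080 to 0.086 with single libraries left out. miR-144-5p was -0.00262 with limma-voom and -0.046 to 0.098 with libraries left out. Both arms of miR-144 summed into a single row gave -0.175 in the same comparison and 0.218 for SAHA, values of neither arm alone. For SAHA, miR-144-3p was -0.228 to 0.082 with libraries left out, and miR-486-5p -0.094 to 8.861e-05. Apart from the summing of arms, the cause of these changes was not tested.

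Deviations of same-numbered samples from their group means had correlations of -0.317 to 0.314 (median 0.017, and 4 of 16 above 0.1). The labels do not say whether the numbers pair animals, and these values do not settle it. With the replicate number as a block, 1 of the 5 was called for aged SAHA against young vehicle (miR-486-3p, adjusted p 0.0284 by edgeR), and miR-144-5p was -0.0652 there. With that block 2 miRNAs, 1 of them among the 5, passed for the slope on miR-451, with miR-486-3p at 0.165. The number passing for the slope was 11 (1 of the 5) with library size, 2 (1) with miR-144-3p in place of miR-451, 9 (0) with miR-486-5p in its place, and 4 to 34 (0 to 2) with single libraries left out. With miR-486-5p as the covariate miR-486-3p had a slope of 0.0833. Without aged SAHA 1 and young vehicle 6, 1 of the 5 passed. With the miR-451 covariate and libraries left out, 5 to 15 were called for age and 4 to 31 for SAHA. Log2 ratio differences with libraries left out were -0.104 to 0.049 for miR-451 to miR-144-3p by age, -0.024 to 0.101 for miR-451 to miR-23a-3p by SAHA, and for the miR-486 arms -0.020 to 0.214 by SAHA and -0.027 to 0.208 by age.

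The correlations of miR-451 with miR-144-3p and miR-144-5p were 0.722 and 0.679 in young vehicle alone and 0.912 and 0.899 in aged SAHA alone, none passing after adjustment, and 0.517 with miR-144-3p without the 2 farthest libraries. miR-144-3p with miR-486-3p was -0.418 in young vehicle alone, -0.0395 for deviations from group means and -0.116 without the 2 farthest. The arms of miR-486 were at -0.122 in young vehicle alone. In aged SAHA alone, miR-451 with miR-486-3p was 0.0635, miR-144-3p with miR-486-5p -0.0214 and miR-144-5p with miR-486-3p 0.243. Counting error of about 10% limits miR-144-3p, miR-144-5p and miR-486-3p (9.82% to 10.9%).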
